A study of Arabidopsis thaliana with 12 samples.

Results

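The transcripts described here were taken as the precursors of young miRNAs of *Arabidopsis*, those miRNAs that are found in this species and close relatives and not across land plants. They were taken by name from the annotation of the array. A probe set, the group of probes that reads 1 gene, belonged to the class when its description held MIR and a number. That number had to be none of those the rule took as conserved families (miR156 to miR172, miR319, miR390 to miR399, miR403 and miR408). This rule gave 76 of the 171 *MIR* probe sets and of 27827 probe sets in all. The other 95 *MIR* probe sets are called conserved below by this rule alone. No measured value entered the rule. It goes by number alone, and how widely each miRNA is shared among plants was not examined for either class. RNA came from detached mature rosette leaves of plants aged 4 to 5 weeks, floated on water at 22 °C for 6 h, and was hybridised to 12 arrays. The groups were *dcl1-9* leaves in darkness, *dcl1-9* leaves in light (100 µE), WT leaves in darkness and WT leaves in light (100 µE), each with 3 biological replicates. All plants were of the Col-0 background. The recessive *dcl1-9* allele is a partial loss of DCL1 function caused by a T-DNA insertion, was moved into Col-0 by repeated backcrosses, and its homozygous plants were picked by their appearance from the progeny of heterozygotes.

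Plant *MIR* genes are transcribed by RNA polymerase II into long primary transcripts that fold into a hairpin. DCL1, an RNase III enzyme of the nucleus, cuts the hairpin and releases the miRNA, so that the primary transcript is used up in the process. Young *MIR* genes differ from conserved ones in that most are single-copy, weakly transcribed and often without a known target, and the hairpins of some of them are cut by DCL4 in place of DCL1. The array reads the primary transcript and not the mature miRNA.

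For 7 of the 76 precursors the study designed primers for qRT-PCR, and these are the stretches by which the same transcripts can be found again outside the array. They are given here because each of these genes, MIR775A, MIR849A, MIR824A, MIR419, MIR822A, MIR861A and MIR838A, was called between dark and light. All 14 primers are written 5′ to 3′, they were 19 to 24 bases long, and no base is marked.
MIR775A forward: acgttgcactacgtgacattg
MIR775A reverse: tggcactgctagacatcgaa
MIR849A forward: tggaaaggatgtgaactcctgaa
MIR849A reverse: tcaatcttctcgctcccaacaa
MIR824A forward: agtccaagccgattctcaaa
MIR824A reverse: tgagagtcacctcgcacatc
MIR419 forward: tgctgaggatgttgttattacgag
MIR419 reverse: tgcaagcaagcaaccaaat
MIR822A forward: atggtatcgtggcgtttctc
MIR822A reverse: aaaaggattgtcacttccgact
MIR861A forward: ggctttggtgaaggattaagg
MIR861A reverse: gaagacggactccattgacg
MIR838A forward: agtcacctgtggtgttgtgc
MIR838A reverse: gccggtcttgtacaacatatatcc

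The gene that carries the mutation, *DCL1*, read 67.4, 64.5 and 51.5 in *dcl1-9* leaves in darkness, against 26.6, 21.3 and 23.1 in WT leaves in darkness, and 48.3, 41.8 and 36.4 in *dcl1-9* leaves in light, against 21.4, 21.5 and 17.1 in WT leaves in light, all as linear intensities. *DCL1* mRNA is itself cut by miR162 and carries the hairpin of miR838 in an intron, and where its probes sit along the disrupted gene was not examined, so these values do not check the genotype labels. Of the leaf mesophyll markers, RBCS1A, RCA and CA1 were bright in every group (summed intensity of all 6 markers 5500 to 7370 in *dcl1-9* leaves, against 4370 to 7310 in WT leaves), while LHCB1.1 was dim, at 11.7 or less on every array. Of the 27 cell type markers, 1 was called higher (MYB60, of guard cells) in *dcl1-9* than in WT leaves in light and 1 lower (PI, of flowers) in darkness. The summed intensity of 4 flower markers was 34.2 to 41.8 in *dcl1-9* leaves, against 46.0 or more in WT leaves, and that of 3 root markers 31.8 to 53.8 in *dcl1-9* leaves, against 50.8 to 59.9 in WT leaves. The meristem sums, also dim, leaned the same way (33.1 to 42.8 against 38.7 to 53.2), as did those of xylem. Dim probe sets as a whole were lower in *dcl1-9*, with a median log2 fold change of -0.27 in light and -0.26 in darkness. The part of all these markers in the results below was not tested.

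Most young *MIR* precursors lay in the dim range of the array. Their median intensity over the 12 arrays was 11.2, against 34.6 for all probe sets, and the conserved precursors were close by at 12.1. A mean under 20 was found for 53 of the 76 (69.7%), against 34.8% of all probe sets. Only 4 had a mean of 100 or more. The highest mean intensities were those of MIR853A (208), MIR850A (175), MIR404 (150), MIR824A (125) and MIR825A (72.7), where an intensity depends on the probes as well as on the RNA and gives no ranking of transcript amounts. The spread between replicates was wider than usual on this array, with a median coefficient of variation within groups of 19.5%, against 15.9% for all probe sets. In leaves, a whole organ, fewer cells that make a transcript and less of it per cell cannot be told apart.

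MIR853A, the one with the highest mean, was called in no comparison. It read 198, 186 and 169 in *dcl1-9* leaves in darkness, 227, 198 and 231 in *dcl1-9* leaves in light, 189, 210.5 and 203 in WT leaves in darkness, and 230.3, 222 and 234 in WT leaves in light. Within genotypes and within conditions its log2 fold changes lay between -0.24 and -0.07. MIR825A was not called in any comparison either. It averaged 92.5 ± 9.71 in *dcl1-9* leaves in darkness, 64.6 ± 19.2 in *dcl1-9* leaves in light, 74.0 ± 12.4 in WT leaves in darkness and 59.9 ± 20.4 in WT leaves in light (SD, n = 3 arrays each).

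The first question was which young precursors differ when DCL1 is impaired. In light, 9 of the 76 were higher and 1 was lower in *dcl1-9* than in WT leaves (limma over all probe sets, adjusted p under 0.05). This is 13.2%, where 9.25% of all probe sets were called (5.92% higher, 3.33% lower). In darkness 9 were higher and 2 were lower, or 14.5%, against 7.46% of all probe sets (4.45% higher, 3.02% lower). After quantile normalization the calls were 13 higher and 0 lower in light, and 9 higher and 0 lower in darkness. By the same fit 29.5% of the 95 conserved precursors were called in light (27 higher, 1 lower) and 22.1% in darkness (21 higher, 0 lower). In both classes the precursors with a mean of 20 or more gave the larger share. Of the 23 young ones 5 were called in light (21.7%) and 6 in darkness (26.1%), against 21 and 18 of 32 conserved ones (65.6% and 56.2%) and 12.7% and 10.3% of all probe sets of that brightness. The median log2 fold change of the 76 was -0.12 in light and 0.04 in darkness, where the median of all probe sets was -0.14 and -0.12. After quantile normalization the median of the 76 in light was 0.04. The fold changes below are given as fitted, without taking off these medians.

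MIR870A, MIR865A and MIR779A were higher in *dcl1-9* in both conditions, and for each of them all 6 *dcl1-9* arrays lay above all 6 WT arrays. MIR870A read 11.9, 13.5 and 19.8 in *dcl1-9* leaves in light, against 4.12, 3.34 and 3.35 in WT leaves in light, and 21.7, 18.1 and 19.1 in *dcl1-9* leaves in darkness, against 3.64, 4.06 and 5.09 in WT leaves in darkness. The *dcl1-9* arrays were 11.9 or more and the WT arrays 5.09 or less, and the log2 fold change of MIR870A came to 2.03 in light and 2.21 in darkness (SE 0.24 each, adjusted p = 0.00034 and 0.00021). MIR865A read 14.7, 15.3 and 14.1 in *dcl1-9* leaves in light, against 5.53, 3.71 and 7.30 in WT leaves in light, and 22.5, 19.3 and 18.2 in *dcl1-9* leaves in darkness, against 5.73, 3.01 and 5.76 in WT leaves in darkness. Again the genotypes did not overlap, and the fold change was 2.77 in light (adjusted p = 0.0092) and 4.30 in darkness (adjusted p = 0.0011). The WT values of both genes were at the dim end of the array. MIR779A was brighter, with 60.3, 55.5 and 65.7 in *dcl1-9* leaves in light, against 21.5, 15.7 and 16.3 in WT leaves in light, and 34.6, 34.9 and 37.1 in *dcl1-9* leaves in darkness, against 14.5, 12.1 and 12.3 in WT leaves in darkness. Its log2 fold change was 1.77 in light (SE 0.17, adjusted p = 7.0e-05) and 1.46 in darkness (SE 0.17, adjusted p = 0.00038). These 3 genes kept their calls in both conditions under every alternative fit that tested them, the fold-change criterion of the study's methods aside. The folds of the dim ones depended on the pseudocount. With log2(value + 16) the log2 fold change of MIR870A was 0.65 in light and 0.81 in darkness, that of MIR865A 0.52 and 0.79, and that of MIR779A 1.18 and 0.83.

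MIR824A gives rise to the miRNA that acts on *AGL16*, a MADS-box gene of stomatal development and flowering time. In light its precursor read 219, 167 and 141 in *dcl1-9* leaves, against 93.9, 100.3 and 92.0 in WT leaves, and in darkness 212, 163 and 157 in *dcl1-9* leaves, against 55.2, 37.5 and 56.6 in WT leaves. The genotypes were apart in both conditions, with log2 fold changes of 0.86 in light and 1.84 in darkness (SE 0.20 each, adjusted p = 0.019 and 0.00020). MIR861A read 25.3, 40.0 and 45.9 in *dcl1-9* leaves in light, against 17.0, 13.6 and 18.1 in WT leaves in light, and 71.1, 71.1 and 70.1 in *dcl1-9* leaves in darkness, against 34.3, 29.1 and 31.2 in WT leaves in darkness. Its log2 fold change was 1.16 in light (SE 0.21, adjusted p = 0.0057) and 1.17 in darkness (SE 0.21, adjusted p = 0.0061). MIR472A, whose miRNA acts on disease resistance genes of the nucleotide-binding, leucine-rich repeat class, read 65.3, 79.5 and 61.3 in *dcl1-9* leaves in light, against 31.7, 44.6 and 37.0 in WT leaves in light, and 128, 113 and 110.2 in *dcl1-9* leaves in darkness, against 69.6, 44.0 and 57.3 in WT leaves in darkness. Its log2 fold change was 0.87 in light (SE 0.19, adjusted p = 0.016) and 1.06 in darkness (SE 0.19, adjusted p = 0.0065). The light call of MIR824A was lost without *dcl1-9* light replicate 1 or 2 or WT light replicate 1 or 3 (adjusted p = 0.052 to 0.069), and that of MIR472A without *dcl1-9* light replicate 2 or WT light replicate 1 or 3 (0.057 to 0.072).

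**Figure D1:**
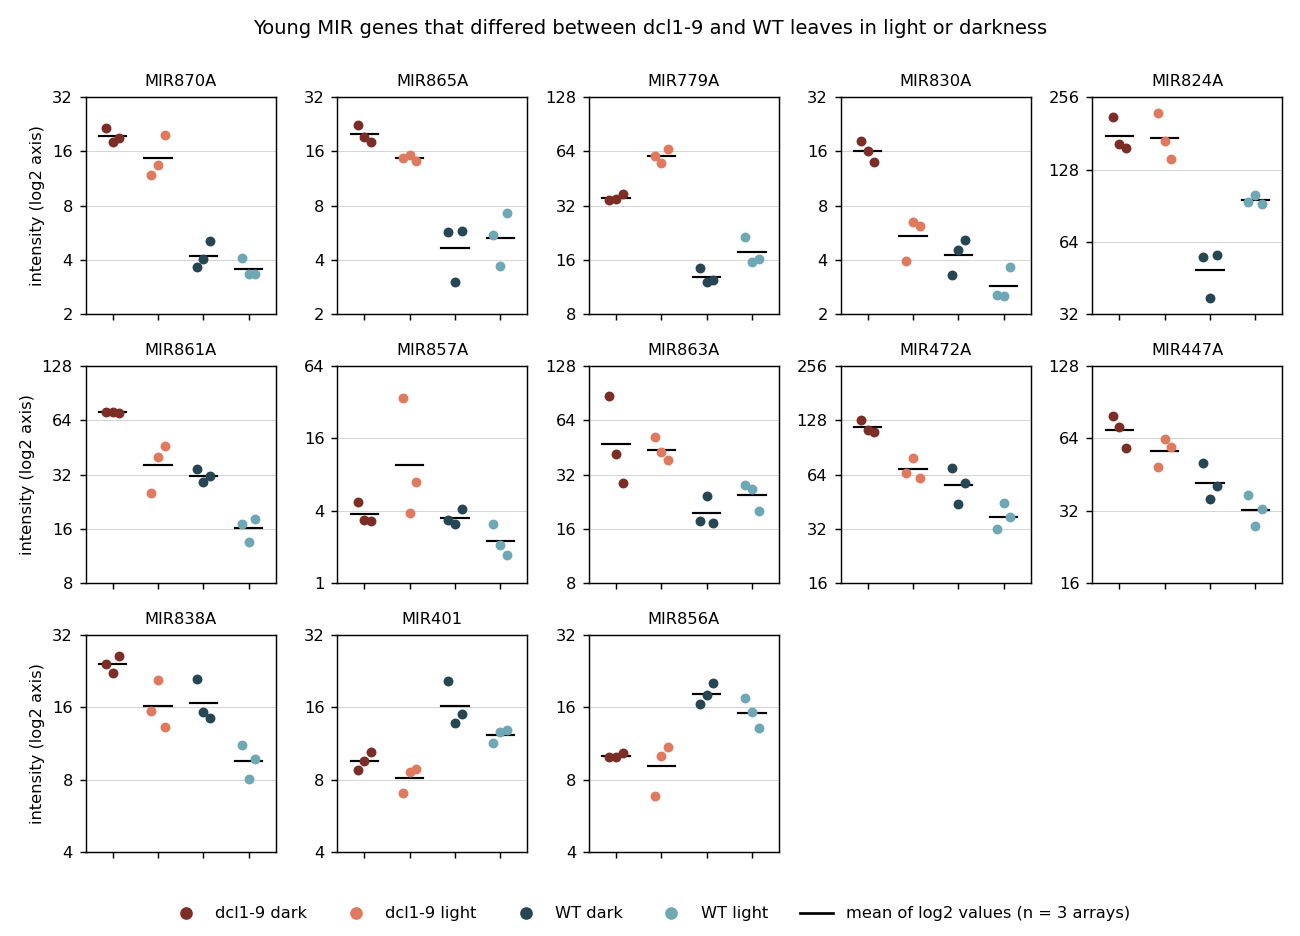
Intensity (log2 axis) of the 13 young *MIR* precursors called between the genotypes in light or in darkness, with 1 point per array and a bar for the mean of the log2 values of 3 arrays. For all but MIR857A, MIR856A and MIR401, every *dcl1-9* array lies above the WT arrays of its condition. For MIR857A 1 array at 34.7 stands apart, and for MIR856A and MIR401 the order is turned.

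MIR447A, from a family that acts on genes for 2-phosphoglycerate kinase, read 48.5, 63.4 and 58.7 in *dcl1-9* leaves in light, against 37.3, 27.6 and 32.4 in WT leaves in light, and 79.0, 71.1 and 58.5 in *dcl1-9* leaves in darkness, against 50.5, 35.7 and 40.6 in WT leaves in darkness. Its log2 fold change was 0.81 in light (SE 0.19, adjusted p = 0.020) and 0.72 in darkness (SE 0.19, adjusted p = 0.036). The calls were lost without *dcl1-9* light replicate 2 or 3 or WT light replicate 3 in light (adjusted p = 0.057 to 0.082), and without *dcl1-9* dark replicate 1 or 2 or WT dark replicate 2 or 3 in darkness (0.097 to 0.16). No such call was made for its near-identical relatives. MIR447B had log2 fold changes of -0.18 in light and -0.52 in darkness, and MIR447C of -0.56 and -0.22, none past the test (adjusted p = 0.13 to 0.64). Signal from probes that match more than 1 of the 3 genes was not separated here.

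MIR856A was the one young precursor called lower in *dcl1-9* in both conditions. It read 6.83, 10.1 and 10.9 in *dcl1-9* leaves in light, against 17.5, 15.3 and 13.1 in WT leaves in light, and 9.92, 9.94 and 10.3 in *dcl1-9* leaves in darkness, against 16.6, 18.0 and 20.2 in WT leaves in darkness. The genotypes did not overlap, with log2 fold changes of -0.74 in light (SE 0.22, adjusted p = 0.046) and -0.85 in darkness (SE 0.22, adjusted p = 0.029). The light call was lost when any 1 of the 12 arrays was left out (adjusted p = 0.050 to 0.15), and the dark call when any 1 of the 6 dark arrays was (0.051 to 0.11). Dim probe sets as a whole were lower in *dcl1-9*, since the 9686 probe sets with a mean under 20 had a median log2 fold change of -0.27 in light and -0.26 in darkness. Called or not, 11 of the 76 in light and 12 in darkness had every *dcl1-9* array below the WT arrays, MIR401 among them in both. The reverse held for 15 in light and 15 in darkness. Of all 27827 probe sets, 5388 in light and 5335 in darkness lay below in this way, and 3678 and 3606 lay above.

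Of the 13 precursors called between the genotypes, 5 were called in 1 condition alone. MIR857A, whose miRNA acts on the laccase gene *LAC7*, was called in light, with 34.7, 3.80 and 6.88 in *dcl1-9* leaves against 3.10, 2.06 and 1.72 in WT leaves. The fold change of 4.36 (adjusted p = 0.037) leaned on 1 array, and was 2.30 (adjusted p = 0.078) without *dcl1-9* light replicate 1. The call was also lost without *dcl1-9* light replicate 3 or any 1 of the 3 WT light arrays (adjusted p = 0.052 to 0.13). MIR838A, which lies within *DCL1*, read 15.4, 20.7 and 13.2 in *dcl1-9* leaves in light, against 11.1, 8.04 and 9.78 in WT leaves in light, and was higher in *dcl1-9* by 1.69-fold (adjusted p = 0.048). This call was lost when any of 9 arrays was left out, namely all but WT dark replicates 1 and 3 and *dcl1-9* light replicate 3 (adjusted p = 0.057 to 0.16). In darkness MIR838A read 24.15, 22.3 and 26.15 in *dcl1-9* leaves, against 20.99, 15.35 and 14.4 in WT leaves. These did not overlap but were not past the test (log2 fold change 0.53).

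Another 3 were called in darkness alone. There MIR830A read 18.4, 16.03 and 13.9 in *dcl1-9* leaves, against 3.29, 4.56 and 5.17 in WT leaves, a 3.75-fold difference (adjusted p = 0.0017). MIR830A kept this call under every alternative fit that tested it, the fold-change criterion of the study's methods aside. In light its values were 3.97, 6.46 and 6.16 in *dcl1-9* leaves, against 2.57, 2.51 and 3.65 in WT leaves, which also did not overlap but were not past the test (log2 fold change 0.92, adjusted p = 0.057). They were called in 4 alternative fits, among them quantile normalization (log2 fold change 1.04, limma adjusted p = 0.035). MIR863A, whose miRNA acts on *SERRATE*, a partner of DCL1, read 87.5, 41.7 and 28.8 in *dcl1-9* leaves in darkness, against 17.7, 24.3 and 17.2 in WT leaves in darkness. The log2 fold change was 1.28 (SE 0.32, adjusted p = 0.027), which was 0.83 without *dcl1-9* dark replicate 1, and the call was lost without *dcl1-9* dark replicate 1 or 2 or WT dark replicate 1 or 3 (adjusted p = 0.063 to 0.11). In light MIR863A read 51.6, 42.45 and 38.3 in *dcl1-9* leaves, against 28.1, 26.5 and 20.2 in WT leaves. These did not overlap but were not past the test. They were called without *dcl1-9* dark replicate 1 (log2 fold change 0.83, adjusted p = 0.04). MIR401 was lower in *dcl1-9* leaves in darkness, with 8.78, 9.51 and 10.4 against 20.6, 13.8 and 15.0 in WT leaves in darkness (log2 fold change -0.76, SE 0.21, adjusted p = 0.042). Leaving out any of 8 arrays ended that call, all but WT light replicates 2 and 3, WT dark replicate 2 and *dcl1-9* light replicate 1 (adjusted p = 0.053 to 0.16). In light MIR401 read 7.01, 8.58 and 8.89 in *dcl1-9* leaves, against 11.4, 12.6 and 12.9 in WT leaves. These did not overlap either but were not past the test (log2 fold change -0.60, adjusted p = 0.086). MIR841A was not called between the genotypes. In darkness it read 75.9, 88.3 and 66.4 in *dcl1-9* leaves, against 32.3, 47.9 and 44.6 in WT leaves, without overlap (log2 fold change 0.90). It was called there in 7 alternative fits, such as the compared groups alone (limma adjusted p = 0.021).

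The genotype differences in light and in darkness share no array and were set against each other. Pearson's r across genes was 0.66 (Spearman's rho 0.606, n = 76 genes) and 0.809 (rho 0.797) for the 23 with a mean of 20 or more, against 0.646 for all probe sets. Genes are not independent replicates, and the arrays share their processing. The 8 genes called in both conditions (MIR447A, MIR472A, MIR779A, MIR824A, MIR856A, MIR861A, MIR865A and MIR870A) were 80.0% of those called in light and 72.7% of those called in darkness, and all had the same direction in both. These shares were not worked out for all probe sets, so they have no whole-array value beside them.

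**Figure D2:**
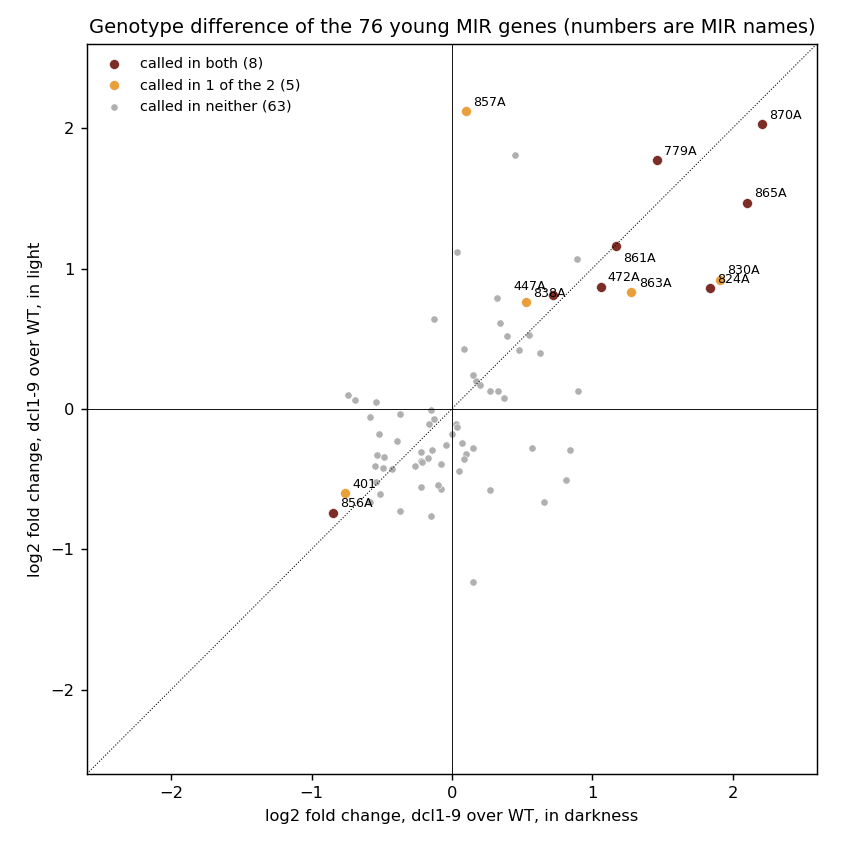
Log2 fold change of *dcl1-9* over WT in darkness (x) and in light (y) for the 76 young *MIR* precursors, with equal values on the dotted line. Of the 8 called in both conditions, 7 lie in the upper right, with MIR824A below the line (1.84 in darkness, 0.86 in light), and MIR856A lies in the lower left, while MIR857A was high in light (2.12) and near 0 in darkness (0.10).

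The second question was which young precursors respond to 6 h of darkness. In *dcl1-9* leaves, 6 were higher and 5 lower in dark than in light. These 11 were 14.5% of the 76, where 23.7% of all probe sets were called (10.8% higher, 12.9% lower). In WT leaves 6 were higher and 6 lower, which is 15.8%, where 27.4% of all probe sets were called (12.8% higher, 14.5% lower). Among precursors with a mean of 20 or more, 7 of 23 were called in *dcl1-9* leaves and 9 in WT leaves (30.4% and 39.1%), close to the 34.0% and 39.0% of all probe sets that bright. Among the 53 dimmer ones 4 were called in *dcl1-9* and 3 in WT leaves (7.55% and 5.66%, against 4.50% and 5.58% of dim probe sets). This split also rests on the mean of all arrays. MIR822A had a mean of 21.9, with means in light of 11.4 in *dcl1-9* and 12.4 in WT leaves. The conserved precursors stood at 16.8% in *dcl1-9* and 13.7% in WT leaves. Of the 27 cell type markers, 2 were called lower in dark in *dcl1-9* leaves, against 4 higher and 7 lower in WT leaves (7.41% and 40.7%). The lower ones were RCA of the mesophyll and GC1 of guard cells in *dcl1-9*, and 5 of the 6 mesophyll markers, KAT1 of guard cells and SEP3 of flowers in the WT. The higher ones in the WT were PI of flowers (8.26-fold), MYB60 and FAMA of guard cells (2.03-fold and 1.54-fold) and CLV3 of the meristem (1.74-fold). The part of these markers in the results was not tested.

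Higher in dark in both genotypes were MIR822A, MIR419, MIR404, MIR861A and MIR472A. MIR822A, which gives rise to a DCL4-made miRNA against genes for DC1-domain proteins, read 24.97, 22.3 and 49.7 in *dcl1-9* leaves in darkness, against 10.8, 10.5 and 12.9 in *dcl1-9* leaves in light, and 26.8, 20.4 and 47.0 in WT leaves in darkness, against 12.6, 14.1 and 10.4 in WT leaves in light. The groups did not overlap, replicate 3 was the highest dark array of both genotypes, and the log2 fold change was 1.41 in *dcl1-9* (SE 0.32, adjusted p = 0.0043) and 1.26 in the WT (SE 0.32, adjusted p = 0.0078). MIR419 read 84.3, 66.6 and 43.5 in *dcl1-9* leaves in darkness, against 27.4, 31.0 and 22.3 in *dcl1-9* leaves in light, and 41.5, 46.3 and 40.8 in WT leaves in darkness, against 18.2, 18.98 and 18.1 in WT leaves in light. It was higher in dark by a log2 difference of 1.23 in *dcl1-9* (SE 0.22, adjusted p = 0.00075) and by 1.22 in the WT (SE 0.22, adjusted p = 0.00065). MIR404 read 140, 241 and 141 in *dcl1-9* leaves in darkness, against 65.8, 103 and 70.5 in *dcl1-9* leaves in light, and 303, 250.4 and 187 in WT leaves in darkness, against 113, 122 and 68.5 in WT leaves in light. Its log2 fold change was 1.10 in *dcl1-9* (SE 0.27, adjusted p = 0.0081) and 1.31 in the WT (SE 0.27, adjusted p = 0.0021). MIR404 and MIR419 are early entries of the miRNA registry, and whether their products are true miRNAs has been questioned.

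MIR861A and MIR472A, with the values given above, were the only young precursors called in all 4 comparisons, each time upwards. MIR861A was higher in dark by a log2 value of 0.98 in *dcl1-9* (SE 0.21, adjusted p = 0.0031) and by 0.96 in the WT (SE 0.21, adjusted p = 0.0029). MIR472A was higher by a log2 value of 0.78 in *dcl1-9* (SE 0.19, adjusted p = 0.0084) and by 0.58 in the WT (SE 0.19, adjusted p = 0.037), where 1 dark array (44.0) lay just under the highest light array (44.6). The WT call of MIR472A was lost without WT light replicate 1 or 3, WT dark replicate 1 or 3 or *dcl1-9* dark replicate 2 (adjusted p = 0.050 to 0.16). By the group means of both genes, the *dcl1-9* leaves in darkness were the brightest and the WT leaves in light the dimmest.

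**Figure D3:**
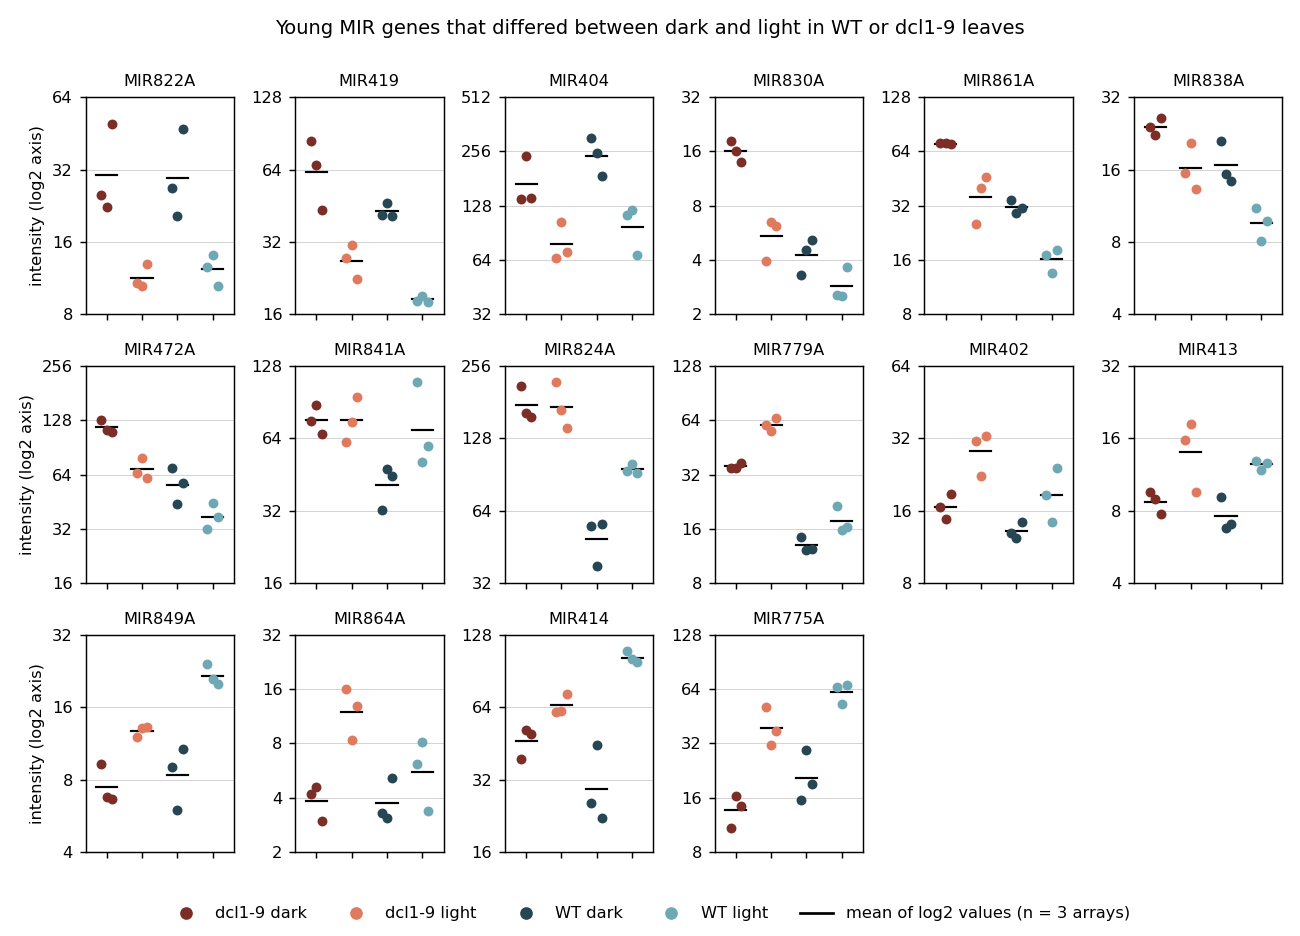
Intensity (log2 axis) of the 16 young *MIR* precursors called between dark and light in WT or *dcl1-9* leaves, with 1 point per array and a bar for the mean of the log2 values of 3 arrays. MIR822A, MIR419, MIR404, MIR861A and MIR472A were higher in dark in both genotypes and MIR775A and MIR849A lower in both, while MIR413, MIR414, MIR824A and MIR841A were called lower in the WT alone.

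MIR775A and MIR849A were lower in dark in both genotypes. MIR775A, whose miRNA acts on a galactosyltransferase gene, read 10.9, 16.4 and 14.4 in *dcl1-9* leaves in darkness, against 50.6, 31.3 and 37.3 in *dcl1-9* leaves in light, and 15.4, 29.3 and 19.1 in WT leaves in darkness, against 65.9, 52.7 and 67.6 in WT leaves in light. Dark and light arrays were far apart in both genotypes, with log2 fold changes of -1.50 in *dcl1-9* (SE 0.26, adjusted p = 0.00050) and -1.59 in the WT (SE 0.26, adjusted p = 0.00025). MIR849A read 9.31, 6.77 and 6.65 in *dcl1-9* leaves in darkness, against 12.0, 13.1 and 13.3 in *dcl1-9* leaves in light, and 9.00, 6.00 and 10.7 in WT leaves in darkness, against 24.2, 20.9 and 20.0 in WT leaves in light. The log2 fold change was -0.77 in *dcl1-9* (SE 0.24, adjusted p = 0.027) and -1.38 in the WT (SE 0.24, adjusted p = 0.00044). The *dcl1-9* call was lost without *dcl1-9* dark replicate 2 or 3 or *dcl1-9* light replicate 2 or 3 (adjusted p = 0.073 to 0.10).

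Another 5 precursors were called in WT leaves alone. For MIR414, another locus whose status as a miRNA has been questioned, the *dcl1-9* leaves read 38.8, 51.5 and 49.6 in darkness, against 61.2, 61.9 and 72.7 in light, which did not overlap but were not past the test (log2 fold change -0.49, adjusted p = 0.14). The WT leaves read 25.5, 44.3 and 22.1 in darkness, against 109.7, 101.2 and 98.2 in light (-1.82, SE 0.23, adjusted p = 2.6e-05). The dark and light arrays of MIR824A overlapped in *dcl1-9*, with means of 177 in darkness and 176 in light, while in the WT MIR824A fell by 0.96 in dark (log2 scale, SE 0.20, adjusted p = 0.0021). MIR841A read 32.3, 47.9 and 44.6 in WT leaves in darkness, against 109.7, 51.0 and 59.7 in WT leaves in light (log2 fold change -0.76, SE 0.27, adjusted p = 0.046). Its call was lost without any of 8 arrays, all but WT light replicates 2 and 3 and *dcl1-9* light replicates 1 and 3 (adjusted p = 0.050 to 0.23), and the log2 fold change was -0.43 without WT light replicate 1. MIR413 read 9.15, 6.76 and 7.07 in WT leaves in darkness, against 12.9, 11.9 and 12.7 in WT leaves in light (-0.72, SE 0.25, adjusted p = 0.044), with a call that was lost without any of 8 arrays, all but WT dark replicate 1 and the 3 *dcl1-9* light arrays (0.052 to 0.13). In *dcl1-9* leaves MIR413 read 9.53, 8.92 and 7.75 in darkness, against 15.7, 18.3 and 9.56 in light, nearly the same difference (-0.69, SE 0.25, adjusted p = 0.059), and it was called there after quantile normalization (-0.74, adjusted p = 0.048) and without *dcl1-9* light replicate 3 (-0.96, adjusted p = 0.0091). MIR838A was higher in dark, with 20.99, 15.3 and 14.4 in WT leaves in darkness (log2 fold change 0.80, SE 0.22, adjusted p = 0.014), and was not called without WT dark replicate 1 or WT light replicate 2 (0.070 and 0.057).

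Another 4 precursors were called in *dcl1-9* leaves alone. MIR830A was higher in darkness, with the 3 dark arrays between 13.9 and 18.4 and the 3 light arrays between 3.97 and 6.46 (log2 fold change 1.57, SE 0.28, adjusted p = 0.00085). MIR864A averaged 3.91 ± 0.841 in *dcl1-9* leaves in darkness (SD, n = 3 arrays), with no array over 4.56, against 12.4 ± 3.83 in *dcl1-9* leaves in light, with no array under 8.39 (limma log2 fold change -1.64, SE 0.36, adjusted p = 0.0035). MIR779A was lower in dark (log2 fold change -0.77, SE 0.17, adjusted p = 0.0045), though both *dcl1-9* groups lay above all WT arrays. Its WT dark arrays (12.1 to 14.5) also lay below its WT light arrays (15.7 to 21.5) without a call. After quantile normalization MIR779A was called lower in dark in the WT as well (-0.51, limma adjusted p = 0.04). MIR402, whose miRNA acts on the DNA demethylase gene *DML3*, read 16.6, 14.8 and 18.8 in *dcl1-9* leaves in darkness, against 31.3, 22.3 and 32.8 in *dcl1-9* leaves in light (log2 fold change -0.77, SE 0.22, adjusted p = 0.020). That call was lost without *dcl1-9* dark replicate 1 or 2 or *dcl1-9* light replicate 1 or 3 (adjusted p = 0.052 to 0.083).

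**Figure D4:**
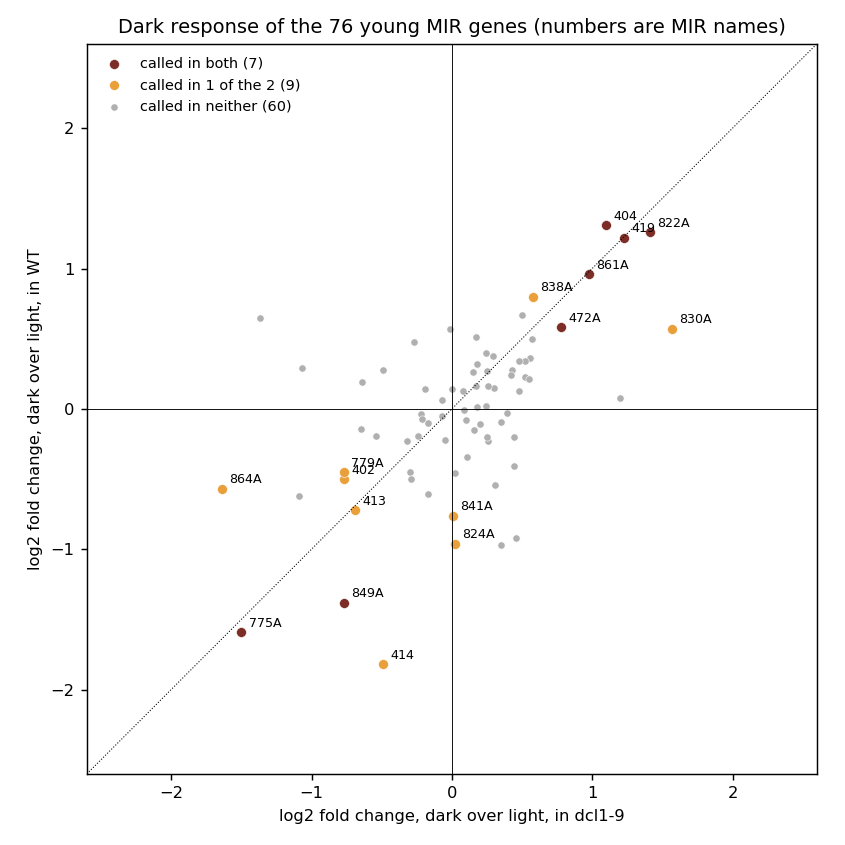
Log2 fold change of dark over light in *dcl1-9* (x) and in WT leaves (y) for the 76 young *MIR* precursors, with equal values on the dotted line. The 7 called in both genotypes lie near that line, MIR849A the farthest from it, and MIR414, MIR824A and MIR841A lie below it.

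A call in one genotype and not in the other does not show that the responses differ, so the difference itself was tested. No young precursor passed this test (limma, 0 of 76, where 0.104% of all probe sets were called, 0.0144% with a higher and 0.0898% with a lower response in *dcl1-9*), and 5 had an unadjusted p under 0.05, or 6.58% against 5.73% of all probe sets. The smallest p was that of MIR414, with a dark response that was less negative in *dcl1-9* by a log2 value of 1.32 (SE 0.32, limma adjusted p = 0.20), and it passed at 1.63 (adjusted p = 0.025) when WT dark replicate 2, its highest WT dark array, was left out. MIR824A followed, with a difference of 0.98 (SE 0.29, adjusted p = 0.39). The 7 precursors called in both genotypes (MIR404, MIR419, MIR472A, MIR775A, MIR822A, MIR849A and MIR861A) made up 63.6% of the *dcl1-9* calls and 58.3% of the WT calls, and all had the same sign. Here too the shares were not worked out for all probe sets. The dark responses of the 2 genotypes, which share no array, correlated across the 76 genes with r = 0.553 (rho 0.523) and across the 23 brighter ones with r = 0.837 (rho 0.887), against 0.863 for all probe sets.

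Position along the chromosome was not part of the rule. By the RefSeq annotation (TAIR10.1, all 76 matched by locus), 23 of the young *MIR* genes lay wholly within another gene, and for 21 of these, all but MIR822A and MIR825A, the host had a probe set of its own. MIR472A lies within AT1G12290, a resistance gene of the same class as the targets of miR472, and both were called in all 4 comparisons, each time upwards. AT1G12290 read 108, 95.7 and 93.4 in *dcl1-9* leaves in darkness, 56.5, 65.4 and 56.0 in *dcl1-9* leaves in light, 58.3, 40.5 and 52.9 in WT leaves in darkness, and 28.5, 36.4 and 32.9 in WT leaves in light. Its log2 fold changes were 0.87 and 0.98 for *dcl1-9* over WT in light and darkness and 0.74 and 0.62 for dark over light in *dcl1-9* and the WT, all past the test (adjusted p = 0.0052 to 0.014), beside 0.87, 1.06, 0.78 and 0.58 for MIR472A. MIR838A and its host *DCL1* were both higher in *dcl1-9* in light (log2 fold change 0.76 and 1.08), but in darkness only *DCL1* was called (1.36, adjusted p = 0.00093, against 0.53 for MIR838A), and in the WT only MIR838A was called between dark and light (0.80, against 0.25 for *DCL1*), while in *dcl1-9* only *DCL1* was (0.54, adjusted p = 0.047, against 0.58 for MIR838A). MIR402 and its host AT1G77230 were both lower in dark in *dcl1-9* leaves (log2 fold change -0.77 and -0.56). Whether a host and the gene within it share probes or are on the same strand was not examined.

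MIR850A is held by AT4G13495, a non-coding transcript whose range MIR863A overlaps in part. MIR850A read 305, 288 and 89.3 in *dcl1-9* leaves in darkness, against 116, 157 and 68.2 in WT leaves in darkness, and 288, 287 and 149.7 in *dcl1-9* leaves in light, against 122, 162 and 68.4 in WT leaves in light. Replicate 3 was the lowest of the 3 in all 4 groups. The difference was not past the test in either condition (log2 fold change 1.07, adjusted p = 0.14 in light, and 0.89, adjusted p = 0.23 in darkness), and without *dcl1-9* dark replicate 3 it was called in darkness (1.46, adjusted p = 0.039). With the replicate number fitted as a block it was called in both conditions (adjusted p = 0.0015 in light and 0.0052 in darkness). AT4G13495 was called higher in *dcl1-9* in light (log2 fold change 0.93, adjusted p = 0.036) and stood at 0.87 in darkness (adjusted p = 0.051). Replicate 3 was the lowest in all 4 groups for MIR863A and MIR419 as well.

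**Figure D5:**
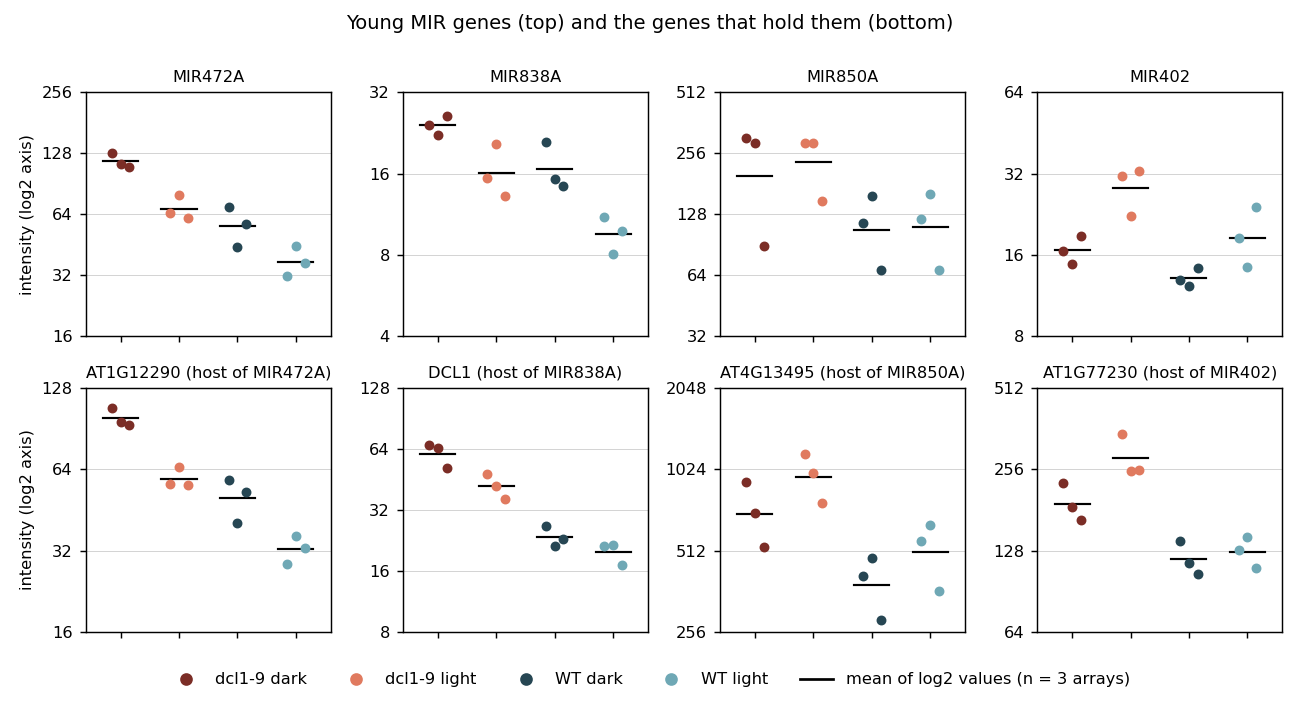
Intensity (log2 axis) of 4 young *MIR* precursors (top row) and of the genes that hold them (bottom row), with 1 point per array and a bar for the mean of the log2 values of 3 arrays. MIR472A and AT1G12290 fall in the same order of groups, *dcl1-9* in darkness highest and WT in light lowest, while MIR838A follows *DCL1* less closely.

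Over all 21 pairs, the host was called in 6, 5, 7 and 4 (*dcl1-9* against WT in light, then in darkness, then dark against light in *dcl1-9*, then in the WT), and the gene within it in 2, 1, 2 and 3. Where both were called (2, 1, 2 and 1 pairs) they had the same direction. Hosts that were called while their guests were not include *PKL*, a chromatin remodelling gene that holds MIR862A, with log2 fold changes of 1.15 in light (adjusted p = 0.0073) and 1.07 in darkness (adjusted p = 0.012), where MIR862A stood at -0.18 and 0.00. It was chosen for this contrast after its values were seen. HTA4, a histone H2A gene that holds MIR841A, was called in no comparison. Of the 53 young *MIR* genes outside other genes, 8, 10, 8 and 8 were called in the 4 comparisons (15.1%, 18.9%, 15.1% and 15.1%), and 2, 1, 3 and 4 of the 23 within one (8.7%, 4.35%, 13% and 17.4%), where 9.25%, 7.46%, 23.7% and 27.4% of all probe sets were called. The difference between these 2 sets was not tested.

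The miRNA number follows the order in which miRNAs were found. Of the 48 precursors from MIR822 to MIR870, 14.6% were called between genotypes in light and as many in darkness, where 9.25% and 7.46% of all probe sets were. Between dark and light, 10.4% and 12.5% were called in *dcl1-9* and the WT. Of the 17 from MIR400 to MIR499, 11.8%, 17.6%, 23.5% and 29.4% were called in the same 4 comparisons, the last pair close to the 23.7% and 27.4% of all probe sets. The difference between the 2 number ranges was not tested. The 10 early loci of doubtful status (MIR404, MIR406, MIR407, MIR413, MIR414, MIR417 to MIR420 and MIR426) held no genotype call, where 9.25% of all probe sets were called in light and 7.46% in darkness. An unadjusted p under 0.05 (limma) was found for 2 of the 10 in light and 3 in darkness. Between dark and light, 2 of the 10 were called in *dcl1-9* (20.0%, against 23.7% of all probe sets) and 4 in the WT (40.0%, against 27.4%). MIR173, which sets off the production of trans-acting siRNAs, read 12 array values from 11.9 to 20.1 and was called nowhere. MIR822A, MIR839A and MIR869A are known as precursors cut by DCL4. None of the 3 was called between the genotypes, as was true of most probe sets. In light and darkness the limma adjusted p was 0.19 and 0.84 for MIR839A and 0.81 and 0.75 for MIR869A. MIR822A averaged 11.4 ± 1.31 in *dcl1-9* leaves in light, against 12.4 ± 1.82 in WT leaves in light, and 32.3 ± 15.1 in *dcl1-9* leaves in darkness, against 31.4 ± 13.9 in WT leaves in darkness (SD, n = 3 arrays each).

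The known targets of these miRNAs were followed by a list of 33 genes, 32 of them on the array. The list counts *DCL1* itself, as the gene that carries the miR838 hairpin. Between the genotypes 3 were higher and 1 lower in light and 3 were higher and 1 lower in darkness (12.5% each, against 9.25% and 7.46% of all probe sets). Between dark and light 3 were higher and 4 lower in *dcl1-9*, and 4 were higher and 4 lower in the WT (21.9% and 25%), close to the 23.7% and 27.4% of all probe sets. *AGL16*, the target of miR824, read 343, 335 and 335 in *dcl1-9* leaves in light, against 166, 195 and 126 in WT leaves in light, and 355, 317 and 316 in *dcl1-9* leaves in darkness, against 221, 234 and 227 in WT leaves in darkness. Its log2 fold change for *dcl1-9* over WT was 1.08 in light and 0.53 in darkness (SE 0.15 each, adjusted p = 0.0013 and 0.047), and for dark over light 0.51 in the WT (adjusted p = 0.020), where the MIR824A precursor was lower. *TAS1A*, whose transcript is cut by miR173 to start siRNA production, read 18.7, 20.5 and 25.4 in *dcl1-9* leaves in light, against 48.5, 38.9 and 56.6 in WT leaves in light (log2 fold change -1.15, SE 0.21, adjusted p = 0.0065). It was not past the test in darkness (-0.56, adjusted p = 0.12). The other 3 targets of miR173 were not called. *TAS1C* stood the other way, with every *dcl1-9* array above the WT arrays of its condition (0.63, adjusted p = 0.052 in light, and 0.49, adjusted p = 0.12 in darkness), while *TAS1B* stood at -0.01 and -0.10 and *TAS2* at -0.02 and -0.07.

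Other targets were called between dark and light while their precursors were not. *NLA*, a ubiquitin ligase gene of phosphate transport and the target of miR827, was higher in dark by log2 values of 1.23 in *dcl1-9* (adjusted p = 0.00017) and by 1.80 in the WT (adjusted p = 4.1e-06), and lower in *dcl1-9* than in WT leaves in darkness (-0.87, adjusted p = 0.013), while MIR827A, at 3.23 to 11.2 over all arrays, was not called (dark over light 0.35, adjusted p = 0.57 in *dcl1-9*, and -0.97, adjusted p = 0.065 in the WT). It was called lower in dark in the WT without WT light replicate 2 (-1.28, adjusted p = 0.022) or WT dark replicate 2 (-1.24, adjusted p = 0.034). *CMT3*, a DNA methyltransferase gene and the target of miR823, was lower in dark by 1.35 on the log2 scale in *dcl1-9* (adjusted p = 2.9e-05) and by 0.83 in the WT (adjusted p = 0.0013), and MIR823A was not called. *MYB113*, an anthocyanin regulator under miR828, was 1.85-fold lower in dark in *dcl1-9* (adjusted p = 0.014) and 2.29-fold lower in the WT (adjusted p = 0.0016), and MIR828A was not called.

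In all, 23 of the 76 young precursors were called in at least 1 comparison and 53 in none, and 11 of the 23 had a mean under 20. The matching count for all probe sets was not made. Single bright arrays were seen in 5 of 304 combinations of gene and group, where 1 array was at least 3 times the next. They were MIR400, MIR846A and MIR857A, all in *dcl1-9* light replicate 1 (43.8, 55.3 and 34.7, against 12.2, 6.49 and 6.88 for the next array), and MIR780A and MIR867A, both in WT light replicate 3 (39.6 and 8.85, against 5.70 and 2.16). Of these genes MIR857A was the only one called.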

How the data were processed

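Total RNA of 12 leaf samples was hybridised to Affymetrix Arabidopsis Gene 1.1 ST arrays. The authors checked the arrays in Expression Console (version not given in the sources used here), grouped the probes by gene with the Brainarray TAIR definition and computed model-based expression in dChip from perfect-match probes after invariant-set normalization, and the deposited values are these linear intensities. The deposited comparison table also holds group means, standard errors and the authors' fold changes, bounds and filter marks, and of these only the means and standard errors entered an alternative call rule. Values under 1 were set to 1, log2 intensities were fitted with limma 3.58.1 (R 4.3.3; 4 groups, all 12 arrays, intensity trend, 8 residual degrees of freedom), and p-values were adjusted by Benjamini-Hochberg over all 27827 probe sets, with a call at 0.05. The labels call the 3 samples of a group biological replicates without naming separate plants, so p-values measure the spread between these samples. The number of arrays limits the precision.

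The named genes are each young precursor called in at least 1 comparison, those that the study discusses, MIR839A and MIR869A, the hosts of all these, *DCL1*, up to 6 called targets (1 of them is not reported here) and the 5 precursors with the highest mean intensity. Others named (MIR447B, MIR447C, MIR173, its other targets, markers, MIR862A and its host, MIR827A, MIR823A, MIR828A, AT4G13495 and genes with single bright arrays) were added after their values were seen. The members and the lists of targets, markers and doubtful loci were chosen with earlier results of these data known. Hosts were found by position in the RefSeq table, whose strand was not used, and no coordinates are given because the build behind the files is not given in the sources used here. The alternatives were a pseudocount of 16 before the log, arrays made equal in quantiles or centred on their medians, a filter on dim probe sets, variances without the trend, the replicate number as a block, the compared groups alone, the methods' criterion (lower 90% bound of the fold change over 1.2) and leaving out each array.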

Additional observations from a re-analysis of the deposited data

How the results depend on the processing

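The counts of young precursors called stayed within 1.5 times their value under most settings, and none of the 44 calls changed direction under any alternative fit. Of these calls, 28 were kept under every alternative fit that tested the gene and 16 were lost under at least 1. The methods' criterion was not part of this check. It kept 8 of the 10 genotype calls in light and 9 of the 11 in darkness. Between dark and light it kept 9 of the 12 calls in the WT and all 11 in *dcl1-9*. With probe sets of a mean under 20 left out, which leaves 23 of the 76 precursors in the test, 5 were called between the genotypes in light in place of 10, 7 in darkness in place of 11, and 7 between dark and light in *dcl1-9* in place of 11. Leaving out 1 array at a time gave 4 to 10 calls between the genotypes in light, the lowest being 4 without WT light replicate 3 and 5 without WT light replicate 1 or *dcl1-9* light replicate 2. It gave 7 to 12 calls in darkness, with 7 without WT dark replicate 3, *dcl1-9* dark replicate 1 or *dcl1-9* dark replicate 2. It gave 9 to 13 calls between dark and light in *dcl1-9* and 9 to 12 in the WT, and 0 to 1 for the difference of the responses, the 1 being MIR414. Fewer genes or fewer arrays entered these fits, and the cause was not tested further. Arrays with the same replicate number correlated in their deviations from the group means with r = 0.0309 to 0.337 over 18 pairs (different numbers, -0.320 to 0.120 over 36 pairs), and 11 of 12 arrays correlated best with an array of their own number. This is a hint from the data at an effect shared by number. The study also read 1 axis of its principal component analysis as the distance between biological replicates. The labels tie the numbers to nothing, and not every same-number pair reached the 0.1 set for a pairing, so the fit without the block was kept. Calls that were missed without the block rest on this choice. With the replicate number as a block, 16 were called between the genotypes in light, 14 in darkness, 13 between dark and light in *dcl1-9*, 14 in the WT and 0 for the difference. MIR850A, not called without the block, was called higher in *dcl1-9* with it (adjusted p = 0.0015 in light and 0.0052 in darkness), MIR413 was called lower in dark in *dcl1-9* (0.043) and MIR827A lower in dark in the WT (0.047). MIR830A and MIR863A were called higher in *dcl1-9* in light with the block (limma adjusted p = 0.04 each). Over all probe sets, 2573 were called between the genotypes in light and 2077 in darkness. These were 5066 and 4338 with the block, 1368 in light with the compared groups alone, 3290 in darkness by the methods' criterion, and 775 to 2995 in light and 441 to 2518 in darkness with 1 array left out. The 29 probe sets called for the difference of the responses were 66 with log2(value + 16), 15 without the intensity trend, 77 with the block and 8 to 39 with 1 array left out. Low signal limits what can be said of the 53 precursors with a mean under 20.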
